A study of Mus musculus with 9 samples.

Results

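The 2 mature arms of the microRNA (miRNA) precursor mir-126, miR-126-5p and miR-126-3p, were followed in mouse bone marrow after 5-fluorouracil (5-FU). Their probes were taken from the deposited table by name, as every row whose description holds miR-126, miR-126-3p or miR-126-5p once the species prefix is removed. This gave 2 of 582 miRNA probes, 1 for each arm, and both passed the filter on dim probes that left 379 for testing. The miR-126-5p probe also carries the name of the human mir-126 hairpin, and the miR-126-3p probe is named miR-126 for human. The treated group was 3 female C57Bl6/J mice, 6 weeks old, that received a single intraperitoneal dose of 150 mg/kg 5-FU and gave marrow at day 4. The drug is a pyrimidine analogue that is toxic to cycling cells. The comparison group was 5 untreated mice of that sex, strain and age. Total RNA came from whole marrow after lysis of red cells, and miRNAs were read as fluorescence on a bead array, in which adaptor-ligated, amplified miRNAs are captured on probe-coupled beads.

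miR-126 lies in an intron of Egfl7, a gene expressed in endothelial cells, and it is known for high levels in endothelium, where it supports vascular growth signalling. In blood formation it is known for high levels in haematopoietic stem and early progenitor cells, where it is linked to quiescence, and it is also found in megakaryocytes and platelets. Both arms are cut from the same hairpin, the 5p arm from its left side and the 3p arm from its right side. A precursor yields 1 copy of each arm, and the amounts that persist in a cell can differ because each arm is loaded and degraded on its own.

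The hairpin is shown because both arms come from it. In RefSeq (build GRCm38.p6) the mouse gene is Mir126a, which also carries the older names Mir126 and mmu-mir-126. It spans chr2:26591357-26591429 on the plus strand, inside the span of Egfl7 (chr2:26581083-26592682). Capitals mark the miR-126a-3p arm, bases 46 to 67 of the 73-base hairpin.
Mir126a hairpin: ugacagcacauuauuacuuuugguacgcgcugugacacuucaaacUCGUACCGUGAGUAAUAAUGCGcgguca
When the first 27 bases were set against the last 27, 22 positions could form Watson-Crick pairs, 2 could form G-U pairs and 3 could not pair. The mature 3p arm is shown with its seed, bases 2 to 8, in capitals, since the seed selects the messages that a miRNA binds.
mmu-miR-126a-3p: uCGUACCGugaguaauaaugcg
Among 1738 mature mouse miRNAs in that table, 0 others share this seed. The gene Mir126b lies on the opposite strand of the same bases, at chr2:26591363-26591420, and its miR-126b-5p overlaps the 3p arm by 19 bases in antisense. The probe names on the array do not separate Mir126a from Mir126b.

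Across the 9 arrays the summed raw fluorescence ranged from 336483 to 679696.5 units. Precision is set by how few arrays there are. They fall into 2 labelled batches: all 5 untreated mice and 5-FU animal 1 were in batch 1, while 5-FU animals 1, 2 and 3 were in batch 2. The 2 arrays of 5-FU animal 1 were averaged, so an animal is the unit. Values are the authors' normalized fluorescence on the log2 scale, where 3 is the floor and 1 unit is a doubling, and levels of the arms are not set against each other because each probe has its own response.

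miR-126-5p, known in endothelium for targeting the Notch pathway inhibitor Dlk1, was higher in marrow after 5-FU in every treated animal. Its log2 signal was 10.73, 10.63 and 10.77 in the 3 treated mice, against 8.87, 9.14, 8.94, 9.17 and 9.37 in the 5 untreated mice. The lowest treated mouse stood 1.27 above the highest untreated mouse, so the groups did not overlap. The mean was 10.71 ± 0.07 (SD, n = 3) after 5-FU and 9.10 ± 0.20 (SD, n = 5) in untreated marrow. The change was 1.61 on the log2 scale (SE 0.12, limma adjusted p = 0.000279), a 3.06-fold rise with a 95% interval of 2.52 to 3.71. An exact permutation test over all 56 assignments of the animals gave p = 0.0179 (two-sided), which no result of this design could undercut.

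miR-126-3p, known to target Spred1 and Pik3r2, which restrain growth factor signalling, was also higher in every treated animal, by a smaller amount. Its log2 signal was 11.85, 11.70 and 11.90 in treated mice, against 10.57, 10.70, 11.10, 11.00 and 11.20 in untreated mice. The groups did not overlap, with 0.50 between the lowest treated and the highest untreated mouse. The mean was 11.81 ± 0.10 (SD, n = 3) after 5-FU and 10.91 ± 0.27 (SD, n = 5) in untreated marrow. The change was 0.90 (SE 0.16, limma adjusted p = 0.00561), a 1.87-fold rise with a 95% interval of 1.44 to 2.42. The exact permutation p was again 0.0179 (two-sided). In a bulk sample, a change in the share of cells that carry a miRNA and a change in its amount per cell cannot be told apart.

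**Figure D1:**
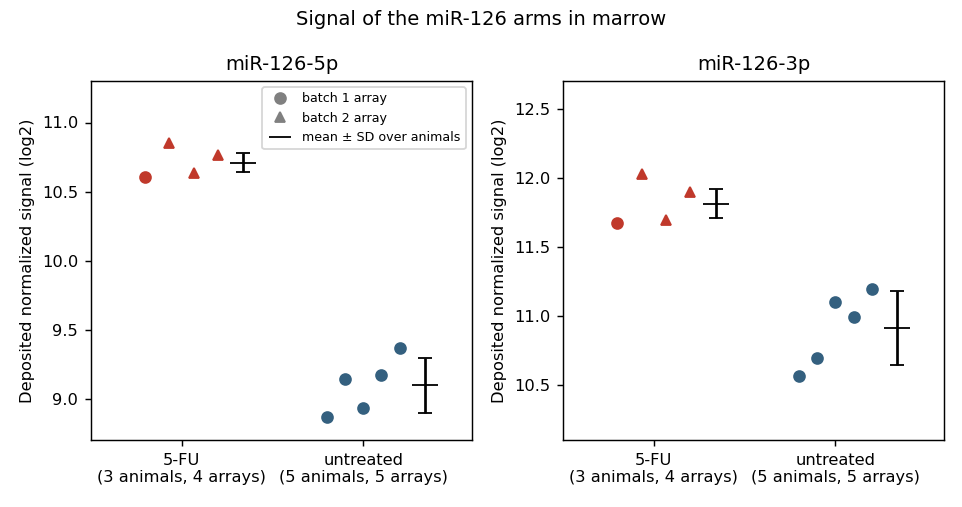
Deposited normalized signal (log2) of miR-126-5p (left panel) and miR-126-3p (right panel) on each array, 5-FU left and untreated right; circles are batch 1 arrays, triangles batch 2 arrays, and the black mark is the mean ± SD over animals. Both panels span the same range of log2 units, and every 5-FU array lies above every untreated array for both arms.

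The untreated mice did not rank the same way for both arms. The animal numbers here are those of the deposited values, and the raw values of untreated mice stand under other numbers. Which mouse each untreated value belongs to is therefore unclear. Untreated animal 5 was highest and animal 1 lowest for each arm. Untreated animal 3 was second highest for miR-126-3p (11.10) and second lowest for miR-126-5p (8.94). Among treated mice, animal 3 was highest and animal 2 lowest for each arm when the 2 arrays of animal 1 were averaged. On the batch 2 arrays alone animal 1 was highest, at 10.85 against 10.77 in animal 3 for miR-126-5p. For miR-126-3p these were 12.03 and 11.90.

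Both arms stood among rises in a table where many probes moved. Of the 379 tested probes, 154 passed (limma adjusted p under 0.05), which is 40.6%, and 59 of these, or 15.6% of those tested, were higher after 5-FU and 95, or 25.1%, were lower. All treated mice lay above all untreated mice in 92 probes, or 24.3%, so that separation of the groups is common in this table. More probes exceeded the floor on the batch 2 arrays (349 to 362) than on the batch 1 arrays (259 to 338). The part of probes near the floor in the 59 and the 92 was not tested. Fitted alone, the 158 probes above log2 7 in at least 3 animals gave 18 higher and 70 lower. By size of rise the change of miR-126-5p had rank 4 of the 379 and that of miR-126-3p was at rank 22. By p-value they ranked 4 and 54. The median over the 379 changes was -0.16, so the arms stood 1.77 and 1.06 above it. The split of passing probes depends on scaling: with each array centred on its median, which moved that median change to 0.31, 118 were higher and 55 lower, against 59 higher and 95 lower as deposited. The arms were higher under each. The count of passing probes was 95 without 5-FU animal 2 and 97 without 5-FU animal 3, with 31 higher in each, and 95 with 21 higher when the batch 1 array alone stood for 5-FU animal 1. Both arms passed in each of those fits. The authors' deposited table gives false discovery rates of 0.0003465 for miR-126-5p and 0.003328 for miR-126-3p, at ranks 1 and 26 by p-value among 168 probes with a p-value there.

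**Figure D2:**
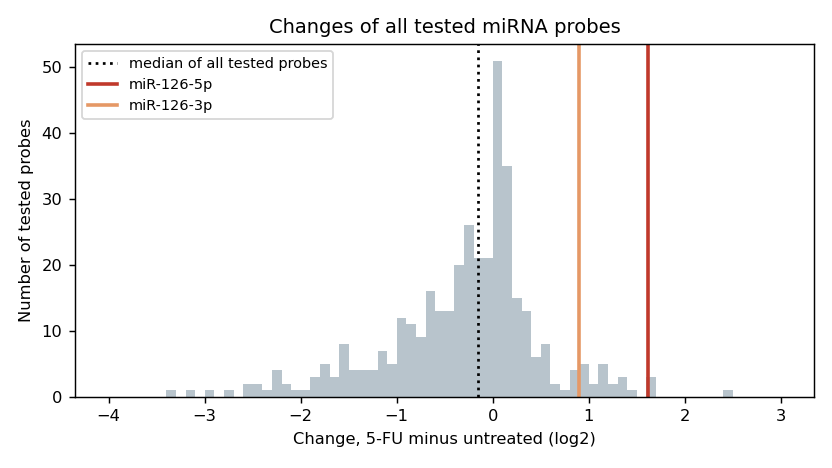
Histogram of the change between 5-FU and untreated marrow (log2) over the 379 tested probes, in bins of 0.1; the dotted line is their median (-0.16) and the coloured lines are miR-126-5p (1.61) and miR-126-3p (0.90). miR-126-5p lies near the right end of the distribution and miR-126-3p to the right of the main peak.

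Batch bears on both arms because no untreated array was in batch 2. On the 2 arrays of 5-FU animal 1, miR-126-5p read 10.61 in batch 1 and 10.85 in batch 2, and miR-126-3p read 11.67 and 12.03. The batch 2 array was thus higher by 0.24 for miR-126-5p and by 0.35 for miR-126-3p, against an SD of 0.35 for this difference over the 379 tested probes. Within batch 1, the single 5-FU array exceeded the highest untreated array by 1.24 for miR-126-5p and by 0.48 for miR-126-3p. The changes there were 1.51 and 0.76. When batch entered the fit of all 9 arrays, the group change equals that within batch 1 and rests on 1 treated array. The 2 arrays of 5-FU animal 1 enter that fit as separate units, with no block for the animal. In that fit miR-126-5p passed (1.51, SE 0.18, limma adjusted p = 0.00762) and miR-126-3p did not (0.76, SE 0.25, limma adjusted p = 0.154). Within batch 1, where each animal has 1 array, the limma adjusted p was 0.0384 for miR-126-5p and 0.298 for miR-126-3p. With batch as a term 9 probes, or 2.37% of the 379, passed as higher and 28, or 7.39%, as lower.

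The next comparison asked whether the signals of the 2 arms of the precursor rose by the same amount. They did not, since the signal of miR-126-5p gained on that of miR-126-3p in every treated animal. The log2 signal of miR-126-5p minus that of miR-126-3p, taken within each animal, was -1.12, -1.06 and -1.13 in treated mice, against -1.70, -1.56, -2.16, -1.82 and -1.83 in untreated mice. The groups did not overlap, with 0.43 between the lowest treated and the highest untreated value. The mean was -1.10 ± 0.04 (SD, n = 3) after 5-FU and -1.81 ± 0.23 (SD, n = 5) in untreated marrow. The shift was 0.71 on the log2 scale, or 1.64-fold in favour of the 5p arm (exact permutation test over 56 assignments, two-sided, p = 0.0179, the smallest possible). The absolute difference between probes has no meaning of its own, but a factor common to an array or to a bead pool cancels in it, because both probes belong to the same one of the 2 bead pools. Background subtraction and quantile scaling do not cancel. Nor does a difference between the 2 probes in how steeply signal follows amount, which was not tested. The shift is therefore one of signal, and the amounts of the arms were not measured apart from it.

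The shift between the arms was present in batch 1 alone. The batch 1 array of 5-FU animal 1 gave a difference of -1.07, above all 5 untreated arrays of that batch, and a shift of 0.75 from their mean. With 1 array against 5, an exact permutation test cannot go below 0.167, which was the p obtained. The deposited batch 2 values hold a term for each probe, shared by the 3 arrays, that the raw values do not hold. Relative to the median probe of its bead pool, this term was 0.24 for miR-126-5p and 0.41 for miR-126-3p, and its SD was 0.50 over 171 probes. This term therefore lowers the deposited difference between the arms in batch 2. It also places the deposited level of each arm higher on those 3 arrays, relative to that median probe. In raw fluorescence less the water wells the difference was -0.96 ± 0.07 (SD, n = 3) after 5-FU and -1.81 ± 0.23 (SD, n = 5) in untreated marrow, a shift of 0.85 (exact permutation p = 0.0179, two-sided).

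**Figure D3:**
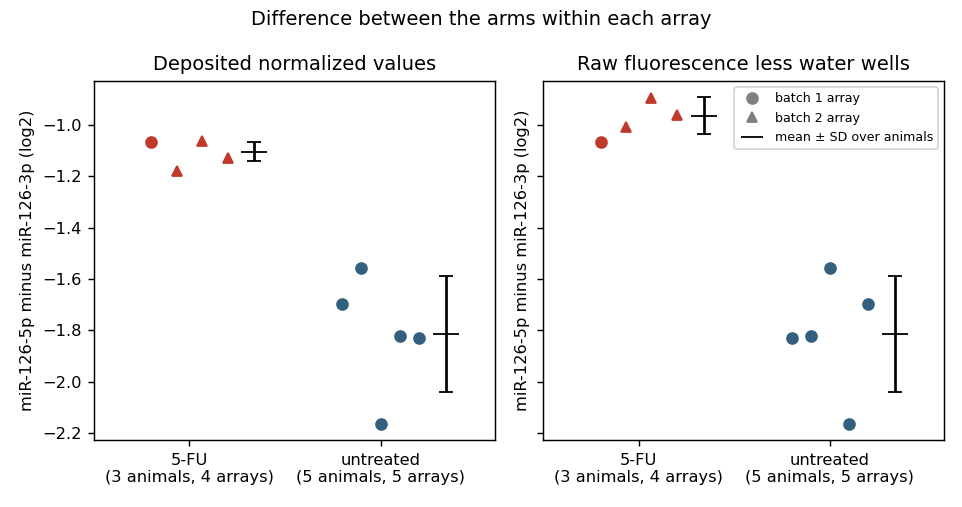
Log2 signal of miR-126-5p minus that of miR-126-3p within each array, from deposited values (left panel) and from raw fluorescence less the water wells (right panel); symbols as for batch and the black mark is the mean ± SD over animals. All 4 arrays of the 5-FU mice lie above all 5 untreated arrays in both panels; the untreated values are the same 5 in both but stand under other animal numbers in the raw table.

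Other precursors with both arms on the array also showed shifts, and these pairs were picked by name after the probe names were seen. Among miRNAs named with 5p and 3p arms or a star arm, 4 pairs including miR-126 lay above the floor in all 8 animals. The shift of the 5p arm relative to the 3p arm was 1.11 for miR-423, -0.49 for miR-142 and -0.36 for miR-342, against 0.71 for miR-126. The groups did not overlap in the pairs of miR-126, miR-423 and miR-142. For miR-142 this was a near tie, with the highest treated value at -0.593 and the lowest untreated value at -0.585. Neither arm of miR-142 passed (limma adjusted p = 0.329 for 5p and 0.229 for 3p). The pair of miR-126 was the single one of the 4 in which both arms were higher with an adjusted p under 0.05. In the pair of miR-423, miR-423-3p fell by 1.79 and miR-423-5p had a change of -0.68 (adjusted p = 0.138).

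Raw fluorescence shows the size of the signal behind these values. The miR-126-5p beads read 1463 to 2981.5 units on the 4 arrays of 5-FU mice and 475 to 878 units on the 5 untreated arrays. The miR-126-3p beads read 3054.5 to 5997 units after 5-FU and 1374 to 3884 units in untreated marrow. Raw miR-126-5p was therefore separated between the groups before any scaling, and raw miR-126-3p overlapped. The water wells gave 17 and 19 units for miR-126-5p and 32.5 and 28.5 units for miR-126-3p, and the other background well, labelled 2nd-TMAC, gave 80 and 59 units. All 3 wells were below every marrow array. The brightest miRNA probe read 11327 to 14764 units per array, above both arms on every array. Whether the beads of either arm respond evenly at their levels was not tested. With each of 7 other scalings of the deposited or raw values the change of miR-126-5p was 1.72 to 2.08 and passed, and that of miR-126-3p was 0.89 to 1.37. miR-126-3p passed in 6 of the 7 and did not pass where raw values were scaled on control beads (1.03, SE 0.32, limma adjusted p = 0.175), a scaling in which 3 probes passed in all.

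**Figure D4:**
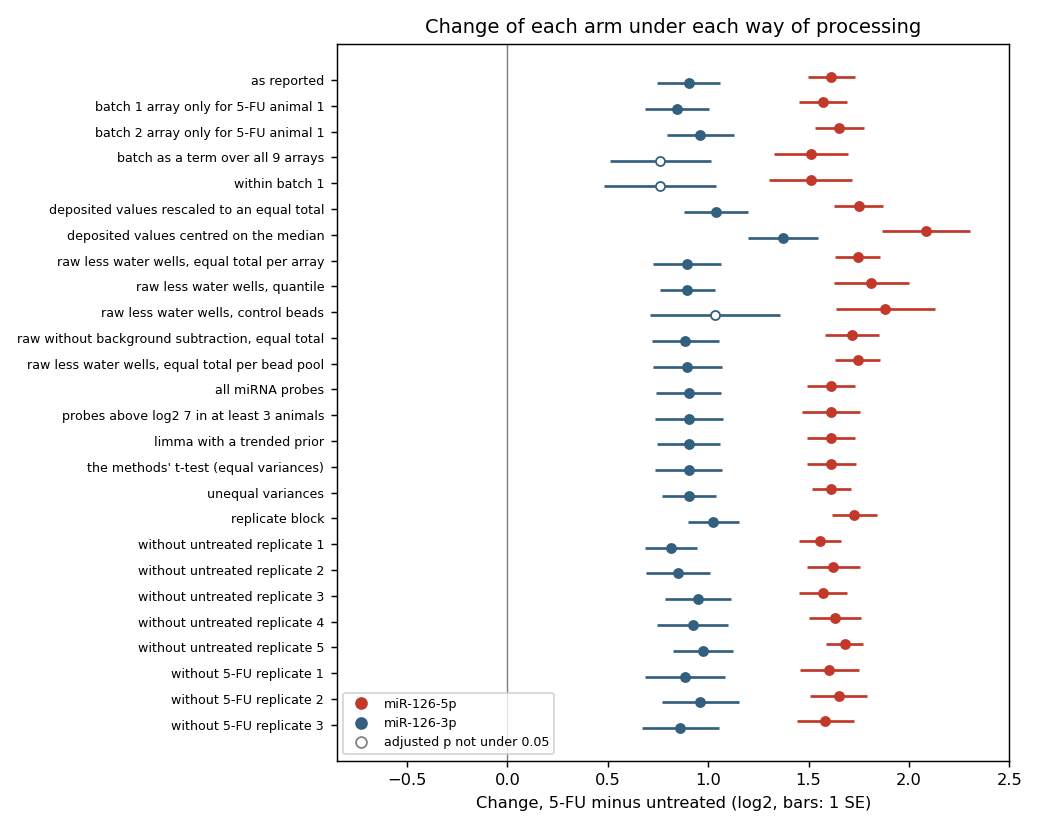
Change between 5-FU and untreated marrow (log2) of miR-126-5p (red) and miR-126-3p (blue) under each way of processing, with bars of 1 SE; open points did not reach an adjusted p under 0.05. The miR-126-5p points run from 1.51 to 2.08 and the miR-126-3p points from 0.76 to 1.37, and the 3 open points are all miR-126-3p.

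The miRNAs with the most similar pattern were sought among 156 other probes named for mature mouse miRNAs and above the floor in all 8 animals, by Pearson's r over the 8 animals. This is a description, since a shared difference between the groups raises every such r. For miR-126-5p the order was miR-143 (r = 0.99), miR-146a (0.97), miR-126-3p (0.94), miR-218 (0.93) and miR-196a (0.93). For miR-126-3p it was miR-143 (r = 0.95), miR-126-5p (0.94), miR-29c (0.94), miR-34a (0.94) and miR-145 (0.93). The sister arm thus had rank 3 for the 5p arm and rank 2 for the 3p arm, and miR-143, known from smooth muscle and stromal cells, came first for both.

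miR-143 had a log2 signal of 11.01 ± 0.17 (SD, n = 3) after 5-FU and 9.91 ± 0.23 (SD, n = 5) in untreated marrow, a change of 1.11. miR-146a, known for restraining inflammatory signalling, stood at 12.63 ± 0.07 after 5-FU and 12.07 ± 0.07 in untreated marrow. miR-218, which is made from introns of the Slit2 and Slit3 genes, stood at 8.27 ± 0.04 after 5-FU and 6.64 ± 0.67 in untreated marrow. All 3 changes passed, and miR-218 did not with batch as a term (limma adjusted p = 0.226).

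The list of endothelial and vessel-associated miRNAs asked whether other vessel miRNAs moved with the arms. Without the arms, 9 of its 10 members were tested, of which 1 rose, 4 fell and 4 did not pass. Their median was -0.60 against -0.16 for the 379 probes, of which 15.6% rose and 25.1% fell. Falls were more common among bright probes. Of the 158 probes above log2 7 in at least 3 animals, fitted alone, 18 rose and 70 fell, with a median of -0.32. The list was not tested against bright probes. The rise was miR-218 (1.63). The falls were miR-221 (-1.21) and its neighbour miR-222 (-0.63), which are also high in haematopoietic progenitors, miR-27b (-0.66) and miR-10b (-1.18). The sign of miR-10b turned in 5 of the 7 other scalings. miR-222 passed in 0 of them (-0.49 to -0.13), miR-27b in 1 (-0.52 to -0.06) and miR-221 in 6, so the count of falls depends on the deposited scaling. The hypoxia miRNA miR-210 (-0.60, adjusted p = 0.277) and the angiogenic miR-132 (0.84, adjusted p = 0.0962) did not pass. In the 7 other scalings miR-132 was higher throughout (0.98 to 1.51) and passed in 4, so the count of rises depends on scaling too. The sign of miR-210 turned in 4 of the 7, and it passed in 0. The summed linear signal of the 9 members was 9285 to 10064 after 5-FU and 11939 to 13261 in untreated marrow. These sums are of deposited values, whose total over all probes was 355655 to 362039 on the batch 2 arrays and 401283 to 402143 on the batch 1 arrays, and they were not recomputed under other scalings. With batch as a term, of the whole list miR-126-5p still rose and miR-221 still fell.

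In the list of stem and progenitor miRNAs without the arms, 12 members were tested, of which 1 rose, 5 fell and 6 did not pass. Their median change was -0.30. Of all tested probes 15.6% rose and 25.1% fell, and of the 158 probes above log2 7, 18 rose and 70 fell. miR-196a, from the Hox clusters, rose by 1.41 (limma adjusted p = 0.00948, or 0.179 once batch was a term). miR-10b and miR-10a (-0.91), also from Hox clusters, fell, and so did miR-196b (-0.79), miR-130a (-0.55) and miR-125a-5p (-0.51). The signs of miR-130a, miR-125a-5p and miR-10b turned in 4, 1 and 5 of the 7 other scalings, and miR-10a passed in 1 of them (-0.77 to -0.09). With batch as a term miR-125a-5p still passed, and the other falls did not: the changes were -0.24 for miR-10a, -0.29 for miR-10b, -0.56 for miR-196b and -0.34 for miR-130a (limma adjusted p 0.217 to 0.774). miR-125b-5p, known for high levels in stem cells, had a change of -0.19 (adjusted p = 0.319). Members that did not pass also depended on scaling. In the 7 other scalings miR-99b (0.38 as deposited) was higher throughout (0.52 to 1.12) and passed in 5. The sign of let-7e (-0.05) turned in all 7 (0.09 to 1.07), and it passed in 2. miR-155 (0.29) passed in 2 (0.42 to 0.84), and miR-125b-5p, miR-99a and miR-100 passed in 0. In the megakaryocyte and platelet list, 1 of 6 members rose (miR-146a, 0.56), 3 fell (miR-10a, miR-130a and miR-150) and 2 did not pass, beside the same 15.6% and 25.1%. The members that fell are not particular to this list: miR-10a and miR-130a are also in the stem list and miR-150 in the lymphocyte list. With batch as a term miR-146a still rose and 0 members fell, and the signs of miR-130a and miR-150 turned in other scalings.

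Markers of other cell types differed between the groups too, and their part in the change of the arms was not tested. Skeletal muscle is among these lists though it is not a marrow cell type, and the source of its signal was not tested. The counts stand beside 15.6% of all tested probes that rose and 25.1% that fell. Of the 158 probes above log2 7, 18 rose and 70 fell. In the smooth muscle and stroma list 2 of 5 members rose, miR-143 and miR-145 (1.06), and the other members were at 0.42 to 0.54. Of those others, miR-152 passed in 5 of the 7 other scalings, miR-199a-5p in 3 and miR-214 in 1. Its summed linear signal was 3892 to 4797 after 5-FU and 1778 to 3229 in untreated marrow. In the skeletal muscle list 3 of 3 rose, with changes of 0.80 for miR-1, 1.16 for miR-133b and 1.04 for miR-206. In the 7 other scalings miR-1 passed in 3, and miR-133b and miR-206 each in 6. The summed signal of this list was 12797 to 13692 after 5-FU and 4807 to 9663 in untreated marrow. All 6 lymphocyte members fell, led by miR-181d (-2.22) and miR-181c (-2.15), with a summed signal of 6345 to 7277 after 5-FU and 13182 to 15556 in untreated marrow. The signs of miR-150 and miR-342-3p turned in other scalings. In the myeloid list 1 of 4 fell (miR-338-3p, -1.79) and in the erythroid list 1 of 3 (miR-451, -0.70). Their other members did not pass as deposited. In the 7 other scalings miR-486 (0.54 as deposited) was higher throughout (0.68 to 1.01) and passed in 4. miR-142-3p (0.34) was also higher throughout (0.10 to 0.81) and passed in 1. The signs of miR-144 (-0.12), miR-142-5p (-0.15) and miR-223 (-0.16) turned in 7, 6 and 2 of them, and each passed in 0. With batch as a term, 1 stromal member rose (miR-143), 0 skeletal muscle members rose, and 4 lymphocyte members and miR-338-3p fell. miR-451 had a change of -0.0058 in that fit (limma adjusted p = 1.0) and passed in 1 of the 7 other scalings.

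**Figure D5:**
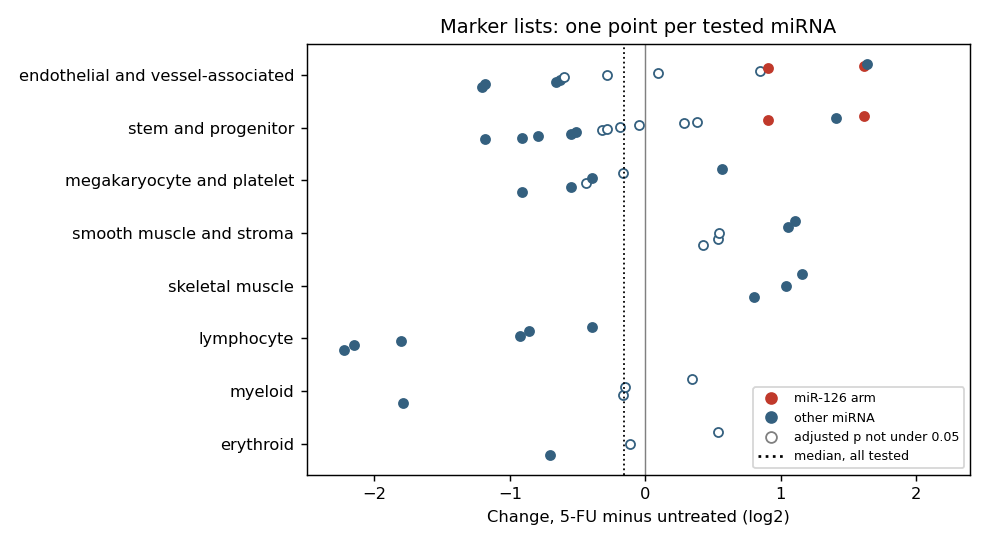
Change between 5-FU and untreated marrow (log2) of each tested member of 8 marker lists, with the miR-126 arms in red, other miRNAs in blue, open points where the adjusted p was not under 0.05, and the dotted line at the median of all tested probes (-0.16). In the endothelial list the arms and miR-218 lie to the right of most members, the muscle and stromal lists lie right of 0, and the lymphocyte list lies left of 0.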

How the data were processed

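Total RNA of 8 animals was read on 9 bead arrays. Normalized values were deposited on the log2 scale with a floor at 3; per the series design text, equal total miRNA per sample was assumed. The deposited raw table holds fluorescence intensity, not normalized, beside background wells, per the file headers. The authors' p-value and false discovery rate (FDR) were deposited beside them, and count each treated array. No software is named in the labels. In batch 1 the deposited values match log2 of raw fluorescence less the higher water well plus a constant for each bead pool, but the untreated columns match raw columns of other untreated animals, so raw and normalized values of single untreated animals were not paired.

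Control beads (12 rows) were left out. Probes that exceeded the floor in 3 or more of the 8 animals were tested with limma (version 3.58.1, R 4.3.3; lmFit and eBayes, group as the term, two-sided, Benjamini-Hochberg over 379 probes, threshold 0.05), a fit tested on simulated data. The shift between arms used an exact permutation test over animals. Because animals are the unit, p-values measure the spread between these animals. Alternatives covered the arrays of 5-FU animal 1, batch, scaling, filter, test and each animal left out. The members, marker lists and tests were chosen with earlier results of these data known. Named miRNAs were the arms, up to 4 members of each list by size of change, and the 5 probes most like each arm. miR-130a, miR-196b, miR-125a-5p, miR-125b-5p, miR-222, miR-27b, miR-210, miR-132, miR-150 and miR-342-3p fall partly outside that rule. So do miR-99b, miR-99a, miR-100, let-7e, miR-155, miR-199a-5p and the arms of miR-423, miR-142 and miR-342. All of these were named after their values were seen. miR-29a, miR-199a-3p and miR-133a of the lists have no probe named for the mature mouse miRNA and were not analysed here, and miR-296-5p was below the filter.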

Additional observations from a re-analysis of the deposited data

Results flagged for a closer look

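Among 31 sets of untreated values, of the miRNAs named by rule and of the arm difference, 1 held an animal far from the others. In miR-152, a stromal list member, the lowest untreated animal read 8.38 on the log2 scale, and its gap to the next animal was 0.786 of the group's range, above the critical value of 0.71 for 5 animals. Chance gives such a gap in about 1 of 20 groups. Neither arm of miR-126 nor their difference held such an animal.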

How the results depend on the processing

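miR-126-5p kept its direction and passed in all 27 alternatives, of which 1 was the exact permutation test of the probe alone (unadjusted p = 0.0179) and 2 were the same fit, with changes of 1.51 to 2.08, and of 1.55 to 1.68 when each animal was left out in turn. miR-126-3p kept its direction in all 27, with 0.82 to 0.97 when each animal was left out, and missed the threshold in 3 of them: 0.76 with batch as a term (limma adjusted p = 0.154), 0.76 within batch 1 (adjusted p = 0.298) and 1.03 under control-bead scaling (adjusted p = 0.175). The shift between the arms was 0.62 to 0.77 without each animal in turn (exact permutation p 0.0286 to 0.0476). It was above p = 0.05 within batch 1 (0.75, p = 0.167), with group medians (0.70, exact permutation p = 0.107) and with the replicate block (0.70, exact permutation p = 0.25, the smallest that 3 pairs allow). The count of passing probes was 154 and became 95 with the batch 1 array alone for 5-FU animal 1, 37 with batch as a term, 12 within batch 1, 56 and 61 for raw values with an equal total per array and per bead pool, 94 with quantile, 3 with the control beads, 79 without background subtraction, 88 among probes above log2 7 and 85 with unequal variances. Without each animal in turn it was 95 to 168. The methods' t-test gave 175. The share of passing probes that were higher was 38.3%, against 22.1% with the batch 1 array alone for 5-FU animal 1, 24.3% with batch as a term, 68.2% after median centring, where the median change was 0.31, and 52.1% with equal deposited totals. It was 50.0% with quantile, 48.2% and 49.2% with the raw totals per array and per pool, 46.8% without background subtraction, 66.7% with the control beads, 33.3% within batch 1, 46.5% with the batch 2 array alone for 5-FU animal 1, 51.2% over all probes, 20.5% above log2 7, 45.0% with a trended prior, 49.7% by the methods' t-test, 22.4% with unequal variances and 21.2% with the replicate block. The cause of these moves was not tested. The main fit did not pair mice by animal number. The deviations of same-numbered animals correlated at 0.05, 0.35 and 0.17 over the tested probes. Animals of different numbers were not correlated for reference, and untreated numbers differ between raw and deposited values. These correlations therefore cannot settle whether the numbers pair the mice. With the replicate block, miR-126-5p changed by 1.73 and miR-126-3p by 1.03, both passing, and 52 probes passed. A random block for the animal could not be fitted, because a single animal has more than 1 array. The scaling per bead pool was chosen after seeing the data.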
